A study of Mus musculus with 6 samples.

Results

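Steroid hormone receptor and steroid metabolism genes are described here in RNA from mouse cells labelled bone endothelial cells (BECs), 9 genes of the 37991 in the count table. They were taken by name: the oestrogen receptors Esr1, Esr2 and Gper1, the progesterone receptor Pgr, the glucocorticoid receptor Nr3c1, the mineralocorticoid receptor Nr3c2, and the enzymes Cyp1b1, Hsd17b11 and Hsd11b1. The rule names genes and uses no measured value, and all 9 had a row in the table. RNA-seq was performed on these cells, freshly isolated from the tibia of c57/Bl6 mice (tibiae and femurs in the study's methods), 3 libraries from females and 3 from males, all aged 12 weeks and with no treatment or modified allele in the labels. The cells were purified by endomucin, a glycoprotein of capillary and venous endothelium, and the study sequenced the 3 samples of each set with the best RNA quality. The labels number the replicates but do not say that each is a separate animal, so p-values measure the spread between these libraries, which may be technical.

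Steroid hormones cross the cell membrane and bind receptors of the nuclear receptor family, held ready by chaperones of the heat shock protein family. The bound receptor attaches to DNA and recruits coactivators or corepressors that change the transcription of nearby genes. Enzymes of the same cell decide how much hormone reaches the receptor, by making the active form from a weak precursor or by degrading it. In bone, oestrogen limits resorption in both sexes, and glucocorticoid in excess causes bone loss.

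Female libraries held between 47678806 and 58325745 counts and male libraries between 49236654 and 50406097. Levels below are library-scaled counts (CPM, edgeR's unit) after TMM normalisation, in which 3 counts, taken as the floor of a library, correspond to between 0.0477 and 0.0639 CPM. This floor covers counting error only. The labelled sexes were checked with Ddx3y of the Y chromosome, at 1.26 to 1.92 CPM in females and 48.2 to 65.9 CPM in males, and with Xist of the X chromosome, at 152 to 364 CPM in females and 0.126 to 0.702 CPM in males. Eif2s3y, Kdm5d and Uty, also of the Y chromosome, were higher in every male too. Uty was the least clear, with 3.42, 0.946 and 0.852 CPM in females and 13.8 to 15.6 CPM in males. Differences are log2 fold changes of males over females from edgeR's quasi-likelihood test, adjusted over the 19480 genes tested.

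The label BECs was checked against markers and names the purification, not the source of every transcript. The defining transcripts of endothelium were present, and those of neutrophils, erythroid cells, macrophages, stromal cells and B cells summed higher in every library. Summed over 16 endothelial markers, led by Stab2 and Pecam1, the level was 359 to 509 CPM in females and 211 to 321 CPM in males. Emcn, the transcript of endomucin, had 5.35 to 10.5 CPM in females and 3.09 to 6.73 CPM in males, and was chosen here because the purification used its protein. The 12 neutrophil markers, led by S100a9 and S100a8, summed to 19052, 23308 and 22514 CPM in females and 32339.7, 44159.7 and 39324 CPM in males. They were 1.79-fold higher in males with no overlap, 9 of the 12 markers being apart in that direction, against 7.25% of all genes tested. The sexes overlapped for the other 3, Elane, Prtn3 and Mpo, of which Mpo had a negative difference (-0.61, SE 0.34). The exact two-sided permutation test gave p = 0.1 for this sum, the smallest that 3 against 3 libraries allow. Erythroid markers, led by Hbb-bs and Hba-a1, were also higher in every male library (18427 to 27074 CPM against 12108 to 17389 CPM). Macrophage markers, led by Vcam1 and C1qa, were higher in every female library (4528 to 4823 CPM against 3026 to 4043 CPM), as was the endothelial sum. The sums of stromal markers (Cxcl12 and Lpl), osteoblast markers (Ibsp and Spp1), B cell markers (Cd79b and Cd79a) and megakaryocyte markers (Pf4 and Ppbp) overlapped between the sexes. They spanned 1584 to 4132 CPM, 175 to 287 CPM, 2669.6 to 3089 CPM and 34.6 to 179 CPM in that order. No marker of any list was at 0 in every library. In bulk RNA, fewer cells of a type and less RNA per cell cannot be told apart, and which cells the transcripts below came from was not tested.

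For real-time PCR of BECs, the study designed primers for 4 of the 9 genes. They are shown because they fix which stretch of a transcript those measurements read, whereas the counts below are per gene. Each pair was matched here to the GENCODE M39 transcripts of GRCm39, and both sites were found in 5 of 13 transcripts of Esr1, 5 of 5 of Esr2, 5 of 6 of Gper1 and 3 of 4 of Cyp1b1. Exon numbers are those of the longest coding transcript with both sites. The Esr1 pair lies in the last exon, in the 3′ UTR, at chr10:4952289-4952308 and chr10:4952351-4952370, and spans 82 bp. The Gper1 pair lies in coding sequence of exon 2, at chr5:139412044-139412063 and chr5:139412110-139412129, and spans 86 bp. The Cyp1b1 pair lies in coding sequence of exon 2, at chr17:80021509-80021528 and chr17:80021436-80021455 on the minus strand, and spans 93 bp. The Esr2 pair lies in coding sequence of exons 9 and 10 on the minus strand of chromosome 12, from 76168690 to 76170019, and spans 100 bp of transcript. The capital letter in its reverse primer marks the 1 base that falls on exon 10, the rest of both primers being on exon 9.
Esr1-F1: tccctgatgtcaattgccct
Esr1-R1: aattgtcaccagcttgcagg
Esr2-F: cctggtctgggtgatttcga
Esr2-R: Actgatgtgcctgacatgagaaag
GPER1-F2: tgcaccttcatgtccctctt
GPER1-R2: gctaggtacctgtcgaagct
Cyp1b1-F: cttgtacttcgctcgccttg
Cyp1b1-R: gcactctctccattcagcac

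Of the 9 genes, 8 passed the filter on low counts and were tested, and none passed an adjusted p of 0.05. Among all genes tested there were 8 that did, 0.0411%, 4 of them on the sex chromosomes. This count rested on single libraries, being 96 genes without male replicate 3 and 5 without female replicate 2. At an unadjusted p under 0.05, 1 of the 8 genes was past the threshold, Hsd11b1, against 9.79% of all genes tested. DESeq2's Wald test also called 1 of these genes, Hsd11b1, against 2.02% of the genes it tested. Differences were positive for 3 of the 8 and negative for 5, with a median of -0.12 on the log2 scale, and the median of all genes tested was -0.00125. This median rested on single libraries, being 0.11 without female replicate 1, 0.03 without male replicate 2 and -0.26 without female replicate 2.

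**Figure D1:**
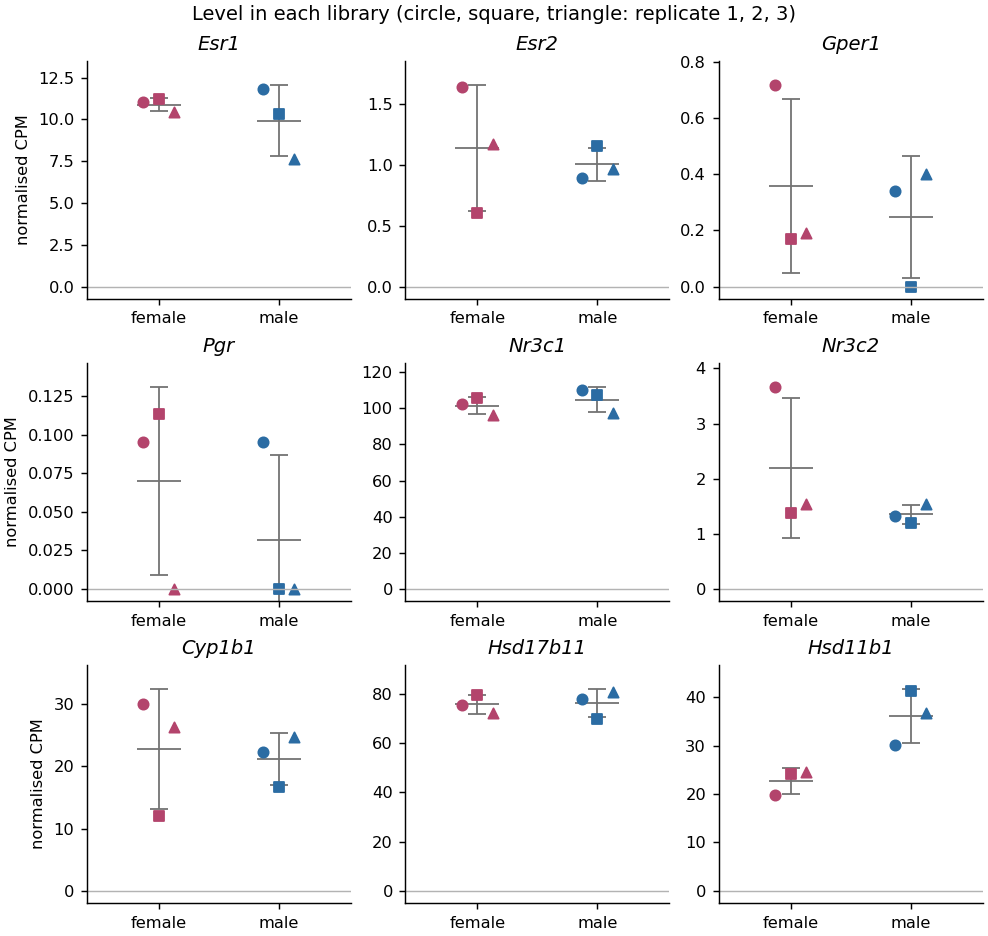
Level of each of the 9 genes in each library, in TMM-normalised CPM on linear axes that include 0. Points are libraries (circle, square and triangle for replicates 1, 2 and 3), and the grey lines are the mean and SD of the 3 libraries of a sex. Hsd11b1 is the gene whose 3 male libraries, at 30.2 to 41.3 CPM, all lie above its 3 female libraries, at 19.7 to 24.5 CPM.

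Esr1, which encodes oestrogen receptor α (chr10:4561593-4955626 on GRCm39, plus strand), was the most abundant of the oestrogen receptors per exon length. It had 11.04, 11.2 and 10.4 CPM in female replicates 1, 2 and 3 and 11.8, 10.3 and 7.65 CPM in males. The highest and the lowest library were both male, and the females lay between them. The means were 10.9 ± 0.402 CPM in females and 9.93 ± 2.11 CPM in males (SD, n = 3 each). The difference was -0.13 (SE 0.19, 95% interval -0.56 to 0.29, edgeR adjusted p = 0.861). Its sign rested on male replicate 3, without which the difference was 0.02.

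Esr2, which encodes oestrogen receptor β (chr12:76167193-76224033, minus strand), had a mean of 0.318 CPM per kb of exon against 0.746 CPM per kb for Esr1. It had 103, 32 and 55 counts in females and 47, 57 and 46 counts in males, which are 1.64, 0.605 and 1.17 CPM against 0.892, 1.16 and 0.970 CPM. The spread lay among the females, which held both the highest and the lowest library. The difference between the sexes was -0.18 (SE 0.42, interval -1.12 to 0.76, edgeR adjusted p = 0.925) and turned to 0.19 without female replicate 1.

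Gper1, a membrane receptor coupled to G proteins that responds to oestrogen within minutes (chr5:139408898-139414146, plus strand), had few counts. It had 45, 9 and 9 counts in females and 18, 0 and 19 counts in males, or 0.716, 0.170 and 0.192 CPM against 0.342, 0 and 0.401 CPM. Female replicate 1 was highest, and the 0 of male replicate 2 allows a level of up to 0.0609 CPM. The edgeR difference of -0.55 had the widest interval of the 8 genes (SE 0.98, -2.74 to 1.63, adjusted p = 0.891). It was 0.46 without female replicate 1, 0.03 without male replicate 2 and -1.07 without male replicate 3, and DESeq2 gave no adjusted p for this gene.

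Pgr, the progesterone receptor and in many tissues a target of oestrogen receptor α (chr9:8899830-8968612, plus strand), had 6, 6 and 0 counts in females and 5, 0 and 0 counts in males. Over the 6 libraries its mean was 0.0506 CPM, at the level of the floor. It did not pass the filter, and no difference was tested.

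Nr3c1, the glucocorticoid receptor (chr18:39543598-39652474, minus strand), was the most abundant receptor per exon length, with 13.1 CPM per kb. Female libraries had 102, 106 and 96.3 CPM and male libraries 110.2, 107 and 97.2 CPM, with replicate 3 lowest in each sex. The means were 102 ± 4.84 CPM and 105 ± 6.80 CPM (SD, n = 3 each). The difference of 0.05 had a narrow interval (SE 0.11, -0.20 to 0.29, edgeR adjusted p = 0.927). Of its exons, 1165 bp overlap those of Gm58395 on the opposite strand, a gene that has no row in the count table.

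Nr3c2, the mineralocorticoid receptor, which binds aldosterone and also glucocorticoids (chr8:77625576-77971863, plus strand), had 3.66, 1.38 and 1.53 CPM in females and 1.33, 1.20 and 1.54 CPM in males. One library stood apart, female replicate 1, and the other females lay within the range of the males. The difference of -0.70 (SE 0.41, interval -1.61 to 0.21, edgeR adjusted p = 0.615) was -0.10 without female replicate 1. Female replicate 1 was also the highest library for Gper1 and Esr2, and for the summed megakaryocyte markers, at 179 CPM against 34.6 to 109 CPM in the other libraries. The part of these cells in the level of Nr3c2 was not tested. Reads in 751 bp of exon could be shared with Gm10649, a long noncoding RNA gene on the opposite strand, since the strand setting of the counting is not given in the sources used here.

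Cyp1b1, a cytochrome P450 that hydroxylates oestradiol to catechol oestrogens (chr17:80008966-80022532, minus strand), varied more between libraries than between sexes. It had 30.1, 12.0 and 26.4 CPM in females and 22.3, 16.6 and 24.8 CPM in males, and replicate 2 was lowest in each sex. The means were 22.8 ± 9.58 CPM and 21.2 ± 4.15 CPM (SD, n = 3 each), with a difference of -0.10 (SE 0.30, interval -0.79 to 0.58, edgeR adjusted p = 0.942). It was 0.15 without female replicate 1, -0.41 without female replicate 2, 0.01 without female replicate 3 and 0.04 without male replicate 2. The libraries low in Cyp1b1 were low in stromal markers too: the summed level was 4039.7, 2259 and 4132 CPM in females and 2389, 1584 and 3333 CPM in males. Per 1000 CPM of stromal markers, Cyp1b1 had 7.45, 5.29 and 6.38 CPM in females and 9.32, 10.5 and 7.43 CPM in males. These ratios are a description of the libraries, and the part of stromal cells in the level was not tested.

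Hsd17b11, a dehydrogenase of lipid droplets that oxidises hydroxysteroids such as androstanediol (chr5:104137628-104169902, minus strand), had the steadiest level beside Nr3c1. Females had 75.7, 79.7 and 72.2 CPM and males 77.9, 70.05 and 81.0 CPM, the males holding the lowest and the highest library. The difference was 0.01 (SE 0.11, interval -0.24 to 0.25, edgeR adjusted p = 0.989). A difference this small has no stable sign, and it was -0.00473 with total counts as the scaling.

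Hsd11b1, the reductase that regenerates active glucocorticoid inside cells from its inactive keto form (chr1:192903918-192946489, minus strand), had the clearest difference of the 9 genes. It had 19.7, 24.1 and 24.5 CPM in females and 30.2, 41.3 and 36.7 CPM in males. All 3 males were above all 3 females, which held for 1 of the 8 tested genes and, in that direction, for 7.25% of all genes tested. The means were 22.8 ± 2.66 CPM in females and 36.1 ± 5.57 CPM in males (SD, n = 3 each), 1.58-fold higher in males. The difference was 0.66 (SE 0.15, interval 0.33 to 1.00), with an unadjusted p = 0.00122 and an adjusted p = 0.164 in edgeR, past no threshold over the whole table. DESeq2's Wald test gave the same difference of 0.66 (SE 0.18) with an adjusted p = 0.0149. Over 12 alternatives the difference kept its sign, between 0.56 and 0.77, with adjusted p from 0.0149 to 0.735. Lamb3, a laminin gene on the opposite strand, spans Hsd11b1 but shares none of its exon bases, and had 1.02 to 2.02 CPM with sexes that overlapped.

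Hsd11b1 moved with the summed neutrophil markers from library to library. The libraries in order of Hsd11b1 were male replicates 2, 3 and 1 and female replicates 3, 2 and 1, and the neutrophil sum gave the same order but for female replicates 2 and 3 exchanged. S100a9 and S100a8, at means of 11180 and 7572 CPM, weigh most in this sum. Its male order was not that of every marker. Retnlg kept it, with 1184, 1545 and 1403 CPM in male replicates 1, 2 and 3. Ltf, with 2457, 2218 and 2198 CPM, and Elane, with 96.5, 168 and 220 CPM, did not. Per 1000 CPM of neutrophil markers, Hsd11b1 had 1.03, 1.04 and 1.09 CPM in females and 0.933, 0.934 and 0.934 CPM in males. On this ratio all 3 males lay below all 3 females. The part of neutrophil RNA in the difference between the sexes was not tested. Macrophage markers went the other way, being lower in males.

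**Figure D2:**
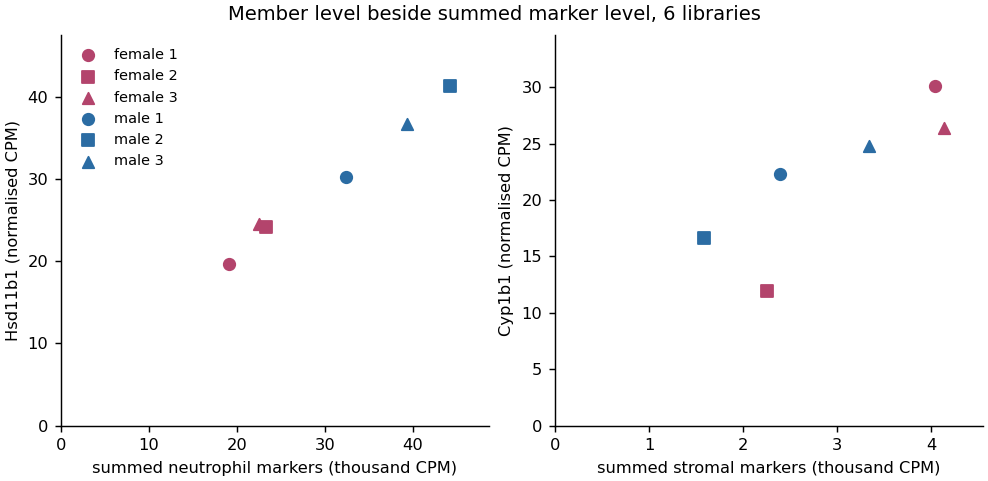
Level of Hsd11b1 against the summed neutrophil markers (left) and of Cyp1b1 against the summed stromal markers (right), 1 point per library, linear axes from 0, sexes by colour and replicates by shape. The male libraries sit at the upper right of the left panel, at 32339.7 to 44159.7 CPM of neutrophil markers, and the sexes are mixed in the right panel.

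The 250 bases upstream of the annotated start of Hsd11b1 are printed because it is the gene whose libraries separated by sex. They are from RefSeq, build GRCm38.p6, chr1:193242361-193242610, minus strand, written 5′ to 3′ with 54.4% G or C. Capitals would mark matches on either strand to an oestrogen response element (GGTCANNNTGACC), a glucocorticoid response element (GNACANNNTGTNC) or a C/EBP motif (TTGCNNAA), which binds the family of Cebpd named below. None of these letters is in this window, and no other start of the gene was searched. The gene span given above is on GRCm39, and its start was not matched to the start used here.
Hsd11b1 upstream: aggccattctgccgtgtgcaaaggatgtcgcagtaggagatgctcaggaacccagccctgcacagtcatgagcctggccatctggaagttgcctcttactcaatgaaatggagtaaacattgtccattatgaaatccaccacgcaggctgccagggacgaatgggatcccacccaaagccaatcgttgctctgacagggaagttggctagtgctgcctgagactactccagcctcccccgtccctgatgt

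Of the 9 genes, 8 had entries in the promoter table, 9 windows in all. None of the windows matched the oestrogen or the glucocorticoid element, which 0.0639% and 0.387% of all 32851 windows of this length matched. The C/EBP motif was matched in 3 of the 9, against 9.56% of all windows. The matches were TTCTGCAA (the reverse strand of the motif) in a window of Esr1, first base at -155 from the start, TTGCTTAA in Hsd17b11 at -28 and TTGCCCAA in Nr3c2 at -245. A match describes letters and not binding, and no binding was measured.

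**Figure D3:**
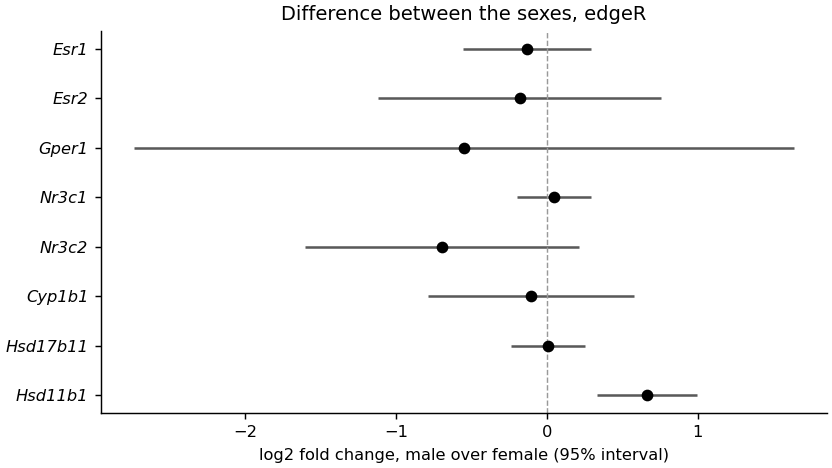
Log2 fold change of males over females for the 8 tested genes with its 95% interval from edgeR, linear axis, the dashed line at no difference. The interval of Hsd11b1 (0.33 to 1.00) lies above 0 before adjustment over all genes, and those of the other 7 include 0.

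Divided by merged exon length, the levels fell into an order that spanned from 22.5 CPM per kb for Hsd17b11 to 0.00592 CPM per kb for Pgr. Between them came Nr3c1 (13.1), Hsd11b1 (5.89), Cyp1b1 (3.04), Esr1 (0.746), Esr2 (0.318), Nr3c2 (0.207) and Gper1 (0.0881 CPM per kb). Over the 6 libraries the ranges of Hsd17b11, Nr3c1 and Hsd11b1 did not overlap, nor did those of Cyp1b1, Esr1 and Esr2. Hsd11b1 (3.95 to 8.26 CPM per kb) overlapped with Cyp1b1 (1.65 to 4.16), Esr2 (0.180 to 0.486) with Nr3c2 (0.140 to 0.428), and Nr3c2 with Gper1 (0 to 0.208). Gper1 and Pgr were both at 0 in male replicate 2. The length of the longest annotated transcript gave the same order.

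**Figure D4:**
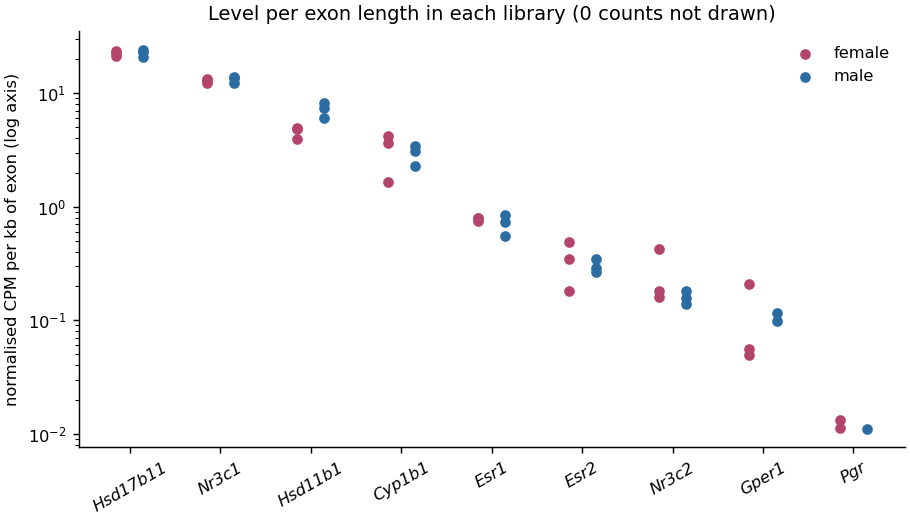
Level per kb of merged exon in each library, log axis, genes ordered by their mean, females and males side by side. Libraries with 0 counts, 1 for Gper1 and 3 for Pgr, cannot be drawn on this axis. The highest and the lowest gene, Hsd17b11 and Pgr, have means of 22.5 and 0.00592 CPM per kb.

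For each of the 7 genes with a mean of at least 1 CPM, the 2 genes with the most similar pattern were taken by Pearson correlation of log2(CPM + 0.5) over the 6 libraries, among 11686 genes. These are descriptions of 6 points that share their libraries. Esr1 was nearest to Usp20 (r = 0.994) and Ddx31 (0.991), which like it were lowest in male replicate 3. Esr2 was nearest to Ralgapa2 (0.980) and Vezt (0.959), Nr3c1 to Fam53c (0.990) and Acap2 (0.988), and Nr3c2 to Rhbdf1 (0.990) and Lrrc1 (0.985). Cyp1b1 was nearest to Mxra8 (0.997) and Amotl2 (0.990), both lowest in female replicate 2. Hsd17b11 was followed closely by Cd79b (0.971), and Hsd11b1 was nearest to Ly6c1 (0.996) and Cklf (0.995). With 6 libraries, high values were not particular to the genes named: of the 11686 genes, between 18 (Esr2) and 265 (Hsd11b1) had r over 0.9.

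The other genes of these pathways were read from 6 lists, 82 genes in all, of which 81 were found and 68 tested. No gene of the lists passed an adjusted p of 0.05 in edgeR, 10 were under 0.05 unadjusted, 4 higher in males and 6 in females, against 9.79% of all genes tested. DESeq2 called 2 genes of the lists, against 2.02% of the genes it tested. In 17 of the 68 the sexes did not overlap, against 14.5% of all genes tested in either direction.

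Receptors for glucocorticoid act through their target genes, and 17 such targets were tested. Of these, 11 had positive differences and 6 negative, with a median of 0.10 that was 0.06 without male replicate 3 or female replicate 3. Cebpd, a transcription factor of myeloid cells and adipocytes, had 38.3, 55.3 and 46.2 CPM in females and 66.7, 92.1 and 84.0 CPM in males, a difference of 0.80 (SE 0.16, edgeR adjusted p = 0.115). Dusp1, a phosphatase of MAP kinases, had 17.1, 20.9 and 16.5 CPM in females and 23.8, 44.6 and 25.3 CPM in males, a difference of 0.78 (SE 0.23, edgeR adjusted p = 0.295) that was 0.44 without male replicate 2. All males were above all females for both, and for Sgk1, a kinase of ion transport (42.1 ± 0.321 CPM against 46.4 ± 2.68 CPM, SD, n = 3 each). These are 3 of the 17, against 7.25% of all genes tested in that direction. Cebpd and Dusp1 were the genes of the lists that DESeq2 called (adjusted p = 0.00212 and 0.0442). Over 12 alternatives their adjusted p lay between 0.00212 and 0.533 for Cebpd and between 0.0442 and 0.943 for Dusp1. Smaller differences were found for other classical targets. Tsc22d3, a leucine zipper that mediates glucocorticoid action, had a difference of 0.12 (SE 0.11), and Fkbp5, a co-chaperone that dampens the receptor and is held by the list of chaperones too, had -0.00575 (SE 0.14). Per1 and Klf9 had -0.02 and -0.00190; these 4 were named after their values were seen. Cebpd also moved with the neutrophil sum. Per 1000 CPM of these markers it had 2.01, 2.37 and 2.05 CPM in females and 2.06, 2.09 and 2.14 CPM in males. On this ratio the sexes overlapped. The part of neutrophil RNA in these differences was not tested.

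Chaperones hold steroid receptors in the form that binds hormone, and all 11 listed were tested. Every one of the 11 differences was negative under TMM, RLE and total count scaling, and between 9 and 11 were as each library was left out. The median was -0.18, with none past an adjusted p of 0.05 in edgeR and 2 under 0.05 unadjusted, against 9.79% of all genes tested. In 5 of the 11 all females were above all males, against 7.29% of all genes tested in that direction. Hspa8, the constitutive heat shock cognate, had 981, 1155 and 1209 CPM in females and 796, 730.3 and 942 CPM in males, a difference of -0.44 (SE 0.16, edgeR adjusted p = 0.383). Fkbp4, a co-chaperone of steroid receptors, had 106 ± 9.64 CPM in females and 88.7 ± 4.51 CPM in males, and Stip1, which links the heat shock proteins, had 74.7 ± 0.993 CPM and 62.7 ± 6.83 CPM (SD, n = 3 each). Their differences were -0.26 and -0.25. Dnaja1 (-0.22) and Ppp5c (-0.18) were the others without overlap, named after their values were seen. The heat shock proteins that carry the receptor, Hsp90aa1 and Hsp90ab1, each had -0.16, and their sexes overlapped. Macrophage and endothelial marker sums were higher in females as well, and their part in these differences was not tested.

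Oestrogen targets numbered 14, of which 13 were tested, 3 with positive and 10 with negative differences and a median of -0.25, which was -0.16 without male replicate 2. At an unadjusted p under 0.05, 2 were higher in males and 3 in females, where 9.79% of all genes tested were under it, and none passed adjustment in edgeR. Rara, a retinoic acid receptor, had 49.3, 47.7 and 39.0 CPM in females and 62.2, 67.0 and 55.8 CPM in males, a difference of 0.44 (SE 0.13, edgeR adjusted p = 0.287, 0.119 to 0.943 over 12 alternatives). Wnt4, a secreted signalling protein, had 45.9 ± 8.95 CPM in females and 62.9 ± 12.4 CPM in males, and Ccnd1, a cyclin of the early cell cycle, had 46.1 ± 9.58 CPM and 34.9 ± 4.25 CPM (SD, n = 3 each), both with sexes that overlapped. Myc, a growth regulator, at -0.30 and Greb1, a cofactor of oestrogen receptor α, at -1.62 were the others under 0.05 unadjusted. Greb1 had few counts, 44, 39 and 8 in females and 11, 5 and 10 in males. Its means were 0.536 ± 0.317 CPM and 0.174 ± 0.0626 CPM (SD, n = 3 each). The sexes did not overlap for 4 of the 13, against 14.5% of all genes tested: Rara, Vegfa (0.38), Myc and Xbp1 (-0.23). Of these genes, Myc, Greb1, Vegfa and Xbp1 were named after their values were seen. Tff1, another classical target, had no count in any library. The marker sums of endothelium (1.68-fold) and macrophages (1.35-fold) were higher in females as well, and that of stromal cells was 1.43-fold higher with sexes that overlapped. Cxcl12 is on both the oestrogen target and the stromal list, and the part of these cells in the differences was not tested.

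Other genes of steroid metabolism numbered 24, of which 23 were found and 13 tested. Sult1a1, a sulfotransferase of phenols and oestrogens, had 19.8, 16.9 and 22.9 CPM in females and 10.4, 8.28 and 16.4 CPM in males. Its difference of -0.77 (SE 0.24, edgeR adjusted p = 0.326) was the one of the 13 under 0.05 unadjusted, against 9.79% of all genes tested, and it was -1.09 with an adjusted p = 0.0455 without male replicate 3. Over 12 alternatives its adjusted p lay between 0.0455 and 0.993. Hsd17b12, of fatty acid elongation and oestrone reduction, had 54.1 ± 2.06 CPM in females and 46.2 ± 3.50 CPM in males, and Hsd17b4, of peroxisomal oxidation, had 70.8 ± 7.74 CPM and 62.1 ± 7.80 CPM (SD, n = 3 each). Differences were positive for 3 of the 13 and negative for 10, with a median of -0.11. Without male replicate 1 they were 6 and 7, with a median of -0.02. The sexes did not overlap for 2 of the 13, Sult1a1 and Hsd17b12, a share near the 14.5% of all genes tested. The 10 genes below the filter included Cyp19a1, the aromatase that makes oestrogen, at a mean of 0.105 CPM, and Hsd11b2, which inactivates glucocorticoid, at 0.147 CPM.

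Coregulators are recruited by the bound receptors. All 9 were tested, 6 with positive and 3 with negative differences, a median of 0.02 and none under 0.05 unadjusted, and as each library was left out the median lay between -0.08 (without male replicate 1) and 0.12 (without male replicate 3). The corepressor Ncor1 had 162 ± 4.49 CPM in females and 185 ± 16.1 CPM in males, the one of the 9 without overlap, and the coactivator Ncoa2 had 63.1 ± 4.30 CPM and 71.5 ± 6.59 CPM (SD, n = 3 each). Orphan receptors related to the oestrogen receptors and membrane receptors for progestin numbered 9, of which 7 were tested, with a median of 0.01 and none under 0.05 unadjusted, the median being -0.00412 with total counts as the scaling and between -0.14 (without male replicate 1) and 0.18 (without female replicate 2) as each library was left out. Pgrmc2, a haem-binding membrane protein, had 33.4 ± 0.522 CPM in females and 28.0 ± 3.90 CPM in males and its relative Pgrmc1 had 56.3 ± 3.89 CPM and 47.6 ± 9.28 CPM (SD, n = 3 each). Paqr7, a membrane progestin receptor, had 16.6 ± 0.428 CPM and 19.5 ± 2.35 CPM (SD, n = 3 each). Pgrmc2 was higher in every female and Paqr7 in every male, so the sexes did not overlap for 2 of these 7 and 1 of the 9 coregulators, against 14.5% of all genes tested. The orphan receptor Esrra had a difference of 0.14 (SE 0.11).

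**Figure D5:**
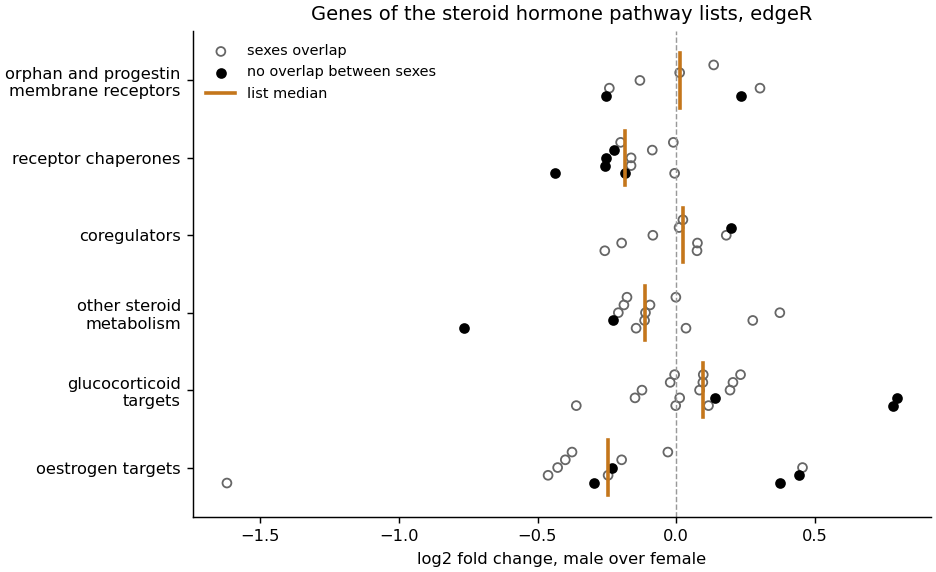
Log2 fold change of males over females for the tested genes of the 6 pathway lists, linear axis, 1 point per gene and list, filled where the sexes do not overlap, the orange bar at the median of the list. The 11 chaperones all lie below 0 around a median of -0.18, and Cebpd and Dusp1 are the 2 rightmost glucocorticoid targets, at 0.80 and 0.78.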

How the data were processed

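The authors deposited whole-number counts of reads per Ensembl gene, without normalisation and without pooling of replicates. Sources differ on how they were made. The paper gives total RNA libraries, 100-nucleotide paired reads, STAR and featureCounts on GRCm39, whereas the labels give polyadenylated RNA, a directional kit and 40-nucleotide reads, and the submitters' processing notes name TopHat2 2.0.11, featureCounts and the builds mm9 and NCBIM37. Annotation release and strand setting are not given in the sources used here, so overlapping and antisense genes may share reads. Gene symbols, positions and lengths were looked up in GENCODE M39 (GRCm39), with 31073 of 37991 identifiers found, and no sample column of the table was left unused.

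Males were compared with females over all 6 libraries with edgeR 4.0.16 in R 4.3.3: TMM normalisation, filterByExpr by sex, robust quasi-likelihood fits without covariates, and Benjamini-Hochberg adjustment over 19480 genes at a threshold of 0.05. The SE was taken as the absolute log2 difference over the root of the F statistic. Fits were tested on simulated data. No pair of libraries agreed within sampling noise, the lowest of 15 chi-square values per degree of freedom being 33.6. Marker lists were summed as CPM and compared by exact two-sided permutation. Promoter windows came from the RefSeq table.

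The members and lists were chosen with earlier results of these data known. Named genes were all members, from each pathway list every gene under 0.05 adjusted (up to 4) and otherwise its 3 with the smallest p, from each marker list its 2 most abundant, and the 2 genes most like each member with a mean of at least 1 CPM, among genes of at least 5 CPM. Alternatives were DESeq2 1.42.0 with the Wald test, RLE scaling, unscaled totals, a fit of all genes with a count, a minimum of 10 counts per library, non-robust estimation, the replicate number as a block, each library left out, the mean of log2 marker levels, and the longest transcript as length. Ranges over 12 alternatives leave the block out. Vpreb1 of the B cell list and Sts of the metabolism list were not matched. Other genes of the lists given in the text, such as Esrra, Hsp90aa1 and Cyp19a1, and the overlapping gene Lamb3 were picked after their values were seen. Of the genes that the rule above names, 2 are not reported here.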

Additional observations from a re-analysis of the deposited data

How the results depend on the processing

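Most values kept their direction and their side of the threshold under the alternatives. Hsd11b1 passed the threshold with DESeq2 (0.66, adjusted p = 0.0149) and with the replicate block (0.66, adjusted p = 0.0110), so these settings called 1 of the 9 genes and no other alternative called any. Its difference lay between 0.56 and 0.77 as each library was left out. Leave-one-out ranges crossed 0 for Esr1 (-0.28 to 0.0211), Esr2 (-0.48 to 0.19), Gper1 (-1.07 to 0.46), Cyp1b1 (-0.41 to 0.15) and Hsd17b11 (-0.0386 to 0.0678), and Hsd17b11 was also -0.00473 with total counts alone. The number of genes at the threshold was 14 with total counts alone, 98 with no filter, 354 with DESeq2 and 428 with the replicate block, and 5 to 96 as each library was left out. Of the pathway lists, 1 gene was called with no filter, 2 with DESeq2, 4 with the block (Cebpd, Dusp1, Sult1a1 and Rara, adjusted p = 0.00158, 0.0199, 0.0192 and 0.0475) and 0 to 1 as each library was left out. The osteoblast sum, 0.08 on the log2 scale, was -0.11 as a mean of log2 levels and -0.0862 to 0.235 as each library was left out, and the B cell sum, -0.00785, was 0.0270 and -0.0686 to 0.0506 likewise. The cause of these shifts was not tested. All scalings moved the median of all genes by less than 0.02.

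Same-numbered libraries of the sexes correlated in their deviations from the sex means with r = 0.248, 0.0613 and 0.361 for replicates 1, 2 and 3 across genes, which are not independent replicates. As the second is under 0.1, the numbers were not taken as pairs. Of the 6 libraries, 5 correlated best with their own number, a hint from the data and not the design. Depth limits Pgr, Gper1 and Esr2, with 0 to 103 counts in a library.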
